A study of Mus musculus with 7 samples.

Results

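Chromatin accessibility was measured at 10 genes of hepatic fat storage, Plin2, Plin4, Plin5, Cidea, Cideb, Cidec, Pnpla2, Pnpla3, G0s2 and Cd36, in the liver of young and aged mice. The genes were chosen by name, and all regions that overlapped a gene body or the 10 kb on either side of it were taken, which gave 40 of the 55680 regions in the deposited count table. Plin4 and Plin5 lie next to each other and shared 3 of these regions. The method was ATAC-seq, in which a transposase inserts sequencing adapters where DNA is not covered by nucleosomes, so that more reads in a region mean more accessible DNA. The young group held 3 libraries from mice aged 3 months and the aged group 4 libraries from mice aged 18 months. All mice were male and of the C57BL/6N strain, with no treatment or engineered allele named for either age, and nuclei were isolated from pieces of whole liver. The design text traces the 4 aged libraries to 3 animals, 1 of which was sampled at a pair of lobules, and does not say which libraries share an animal. The paper instead counts 4 aged biological replicates.

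Hepatocytes store surplus fatty acids as triglyceride in lipid droplets, and fat that accumulates there is called steatosis. Perilipins coat the droplet and control the access of lipases, CIDE proteins let small droplets pass their lipid into larger ones, and lipases of the patatin-like family release fatty acids again. CD36 brings fatty acids into the cell. Several of these genes are known to be induced in fatty liver.

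Of the 40 regions at these genes, 1 rose and 1 fell at an adjusted p under 0.05 (edgeR quasi-likelihood test with Benjamini-Hochberg adjustment over all regions). The region that rose was the promoter of Pnpla3, a lipase-like droplet protein, at 1.503 times its young level. The region that fell lay downstream of the coding part of Plin2, the main droplet coat protein of hepatocytes, at 0.378 times its young level. Among all 55680 regions 2.44% rose and 3.3% fell, 5.74% together, so the share of 5.0% at these genes was close to that of the table as a whole.

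Sequences at these changed regions are shown first. For Pnpla3 this is the RefSeq promoter, which starts before the region that rose (chr15:84167632-84169768) and covers only part of it. Beside them stand the Plin2 promoter, which lay in the same gene as the region that fell, and the Pnpla2 promoter, the most accessible of the 10 genes per kb. Promoters are 250 bases before and 50 after the RefSeq start, written 5′ to 3′ on the strand of the gene, and the region is given by its central 300 bases on the plus strand. All are from GRCm38, at chr15:84167566-84167865 (plus strand, Pnpla3), chr4:86670010-86670309 (minus strand, Plin2), chr7:141454938-141455237 (plus strand, Pnpla2) and chr4:86652068-86652367 (the region downstream). Capitals mark matches on either strand to the letters searched, namely the GC box GGGCGG, the CCAAT box CCAAT and the E-box CACGTG.
Pnpla3 promoter: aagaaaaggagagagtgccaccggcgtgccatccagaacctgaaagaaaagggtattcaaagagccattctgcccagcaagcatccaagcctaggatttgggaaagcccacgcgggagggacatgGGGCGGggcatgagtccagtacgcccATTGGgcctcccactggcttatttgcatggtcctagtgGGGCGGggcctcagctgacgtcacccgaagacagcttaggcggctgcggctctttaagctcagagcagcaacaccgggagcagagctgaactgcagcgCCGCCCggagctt
Plin2 promoter: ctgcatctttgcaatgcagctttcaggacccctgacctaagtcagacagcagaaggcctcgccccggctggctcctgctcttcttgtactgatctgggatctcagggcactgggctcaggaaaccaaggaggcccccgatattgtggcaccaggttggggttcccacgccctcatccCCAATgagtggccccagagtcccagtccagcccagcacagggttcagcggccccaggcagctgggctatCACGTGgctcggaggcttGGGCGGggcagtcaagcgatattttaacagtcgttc
Pnpla2 promoter: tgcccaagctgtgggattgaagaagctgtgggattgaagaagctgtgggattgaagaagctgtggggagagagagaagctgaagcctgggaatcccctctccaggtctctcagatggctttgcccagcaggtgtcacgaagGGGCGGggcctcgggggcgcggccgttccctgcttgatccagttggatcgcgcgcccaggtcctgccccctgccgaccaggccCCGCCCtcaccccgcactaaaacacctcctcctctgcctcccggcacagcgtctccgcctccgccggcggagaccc
Centre of the region downstream of Plin2: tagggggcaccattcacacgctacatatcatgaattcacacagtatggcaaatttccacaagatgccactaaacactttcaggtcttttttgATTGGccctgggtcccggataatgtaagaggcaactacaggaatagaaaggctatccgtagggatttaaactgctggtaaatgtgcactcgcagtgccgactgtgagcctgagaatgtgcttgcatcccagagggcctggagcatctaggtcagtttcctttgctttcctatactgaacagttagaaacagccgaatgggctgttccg

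The Pnpla3 promoter held 15 CpG dinucleotides, the Pnpla2 promoter 18 and the Plin2 promoter 10, where the median over all 32851 RefSeq promoters of this length was 7. The table of promoter sequences matched 9 of the 10 genes with 11 promoters. A GC box stood in 8 of these 11 promoters and in 35.7% of all promoters. Both Plin5 promoters are among the 8, and they overlap and share a GC box. The CCAAT box stood in 5 of 11 and in 37.4% of all, and the E-box only in the Plin2 promoter, against 7.15% of all. The TATA box TATAAA was found in the Cideb promoter alone, against 13.6% of all promoters, and the C/EBP palindrome TTGCNNAA in 1 Cidec promoter, against 10.8%. No member promoter held the forkhead motif TGTTTAC, the SREBP element TCACNCCAC, the HNF4A run CAAAGTCCA or the nuclear receptor repeat of AGGNCA spaced by 1 base, each of which occurred in 0.381% to 3.65% of all promoters. In the central 300 bases of the 40 regions, the C/EBP palindrome occurred in 6 regions (15.0%, against 14.6% of all regions) and the E-box in 4 (against 5.83%). These matches describe letters only, and no binding was measured here.

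Library totals over all regions ran from 5709327 to 25461110 counts in young and from 4474652 to 11717992 in aged liver, and the 40 regions held 0.102% to 0.119% of each total. Values below are CPM, counts scaled to a common library size after normalization by trimmed means (TMM). The libraries carried the promoter regions of 8 of 8 hepatocyte marker genes. Of the other cell types, promoter regions were found for 1 of 7 macrophage, 3 of 5 endothelial, 2 of 4 stellate, 2 of 4 cholangiocyte and 0 of 4 lymphocyte markers. Of 4 adipocyte markers only Plin1 had one, at 3.44 to 4.60 CPM in young and 1.76 to 2.37 in aged liver. The summed hepatocyte marker promoters read 564 to 649 CPM in young and 707 to 825 CPM in aged liver. In whole tissue, a change in the share of a cell type and a change in accessibility per cell cannot be told apart.

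Perilipins cover the droplet surface. Plin2 (ENSMUSG00000028494.12, chr4:86648386-86670060, minus strand) had 3 regions, of which the promoter at chr4:86668322-86672020 carried 76.9% of the young signal of the gene. This promoter had 80.8, 78.2 and 95.4 CPM in young replicates 1 to 3 and 100.2, 116, 118 and 107 CPM in aged replicates 1 to 4. Every aged library lay above every young one. The difference was 0.38 on the log2 scale (SE 0.11) and did not pass the test (edgeR adjusted p = 0.065). It passed in 4 of 20 alternative analyses, among them DESeq2 (adjusted p = 0.022) and the fit without young replicate 3 (0.48 on the log2 scale, edgeR adjusted p = 0.034). With offsets fitted to the mean abundance of the regions it was 0.05 (adjusted p = 0.88).

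At the other end of the gene, the region at chr4:86651808-86652626 fell with age. It is 819 bp long and lies 3939 bp beyond the 3′ end of the main coding transcript, in an intron of a longer noncoding Plin2 transcript. Its CPM values were 6.29, 5.82 and 6.25 in young replicates 1 to 3 and 1.49, 2.16, 4.202 and 2.04 in aged replicates 1 to 4. The young libraries agreed within 0.261 CPM (SD), and all aged libraries were below them, aged replicate 3 being the closest. Behind these values stood 68, 154 and 38 counts in young and 17, 11, 18 and 16 counts in aged libraries. Counting error relative to the signal is therefore larger in the aged group. The log2 fold change was -1.40 (SE 0.32, edgeR adjusted p = 0.024), which lay at the 1.55th percentile of all regions. The summed promoters of the stellate markers were also lower in every aged library (20.9 to 24.0 CPM in young and 11.9 to 19.0 CPM in aged liver). Those of the endothelial and cholangiocyte markers overlapped between the ages. The part that cell types have in this value was not tested.

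The fall at Plin2 kept its direction in all 20 alternative analyses and passed the test in 16. It did not pass without young replicate 1 (edgeR adjusted p = 0.088), without young replicate 2 (0.080) or without aged replicate 1 (0.083), nor with offsets fitted to the mean abundance of the regions (-1.14 on the log2 scale, adjusted p = 0.090). It passed in 6 of 6 sums of a pair of aged libraries, made because by the design text 2 of them share an animal. The third Plin2 region, over coding exons at chr4:86655509-86657983, varied widely within the aged group. It had 19.2, 15.7 and 23.4 CPM in young and 9.84, 18.4, 20.5 and 7.0 CPM in aged libraries, and the groups overlapped (log2 fold change -0.51, SE 0.29, edgeR adjusted p = 0.30).

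The ratio of the downstream region to the promoter of Plin2 within a library does not change with 1 scaling factor per library. It does with offsets on mean abundance, which scale strong and weak regions separately and gave log2 fold changes of -1.14 downstream and 0.05 at the promoter, against -1.40 and 0.38. On the log2 scale the downstream region stood at -3.64, -3.70 and -3.89 relative to the promoter in young libraries and at -5.90, -5.62, -4.75 and -5.58 in aged ones. Young libraries averaged -3.75 ± 0.13 (SD, n = 3), while aged libraries averaged -5.46 ± 0.50 (SD, n = 4). This ratio combines the values already given and is a description, with no test of its own.

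**Figure D1:**
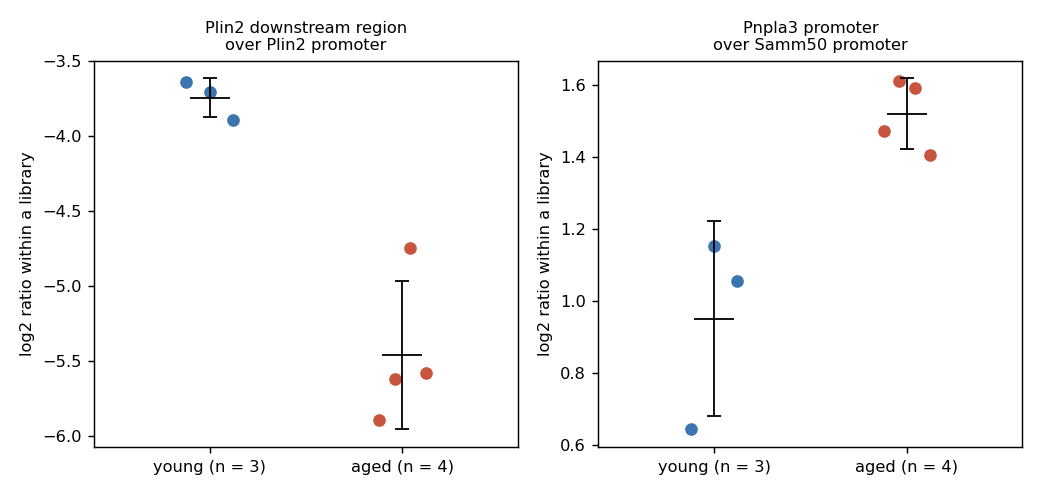
Log2 ratios within each library (y axes) for young and aged liver (x axes), of the region downstream of Plin2 over the Plin2 promoter (left) and of the Pnpla3 promoter over the neighboring Samm50 promoter (right). Points are libraries, and horizontal marks and bars are mean ± SD. The 4 aged libraries lie below the 3 young ones on the left, between -5.90 and -4.75, and above them on the right, between 1.41 and 1.61. Both ratios are descriptions with no test of their own.

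Plin4 and Plin5, which coat droplets in adipose and in oxidative tissues respectively, adjoin on chromosome 17. The Plin4 promoter (ENSMUSG00000002831.13, region chr17:56108339-56110986) had 60.0, 68.8 and 75.8 CPM in young and 62.3, 56.9, 97.1 and 83.5 CPM in aged libraries. At the Plin5 promoter (ENSMUSG00000011305.11, region chr17:56116213-56117886) the values were 61.4, 57.9 and 54.8 CPM in young and 63.7, 53.5, 72.6 and 74.6 CPM in aged libraries. At both promoters the ages overlapped, aged replicates 3 and 4 being high and aged replicate 2 the lowest of all 7 at each. The log2 fold changes were 0.13 (SE 0.17, edgeR adjusted p = 0.66) and 0.19 (SE 0.13, adjusted p = 0.38), and both turned negative with offsets on mean abundance (-0.15 and -0.07). Leaving out aged replicate 3 also turned Plin4, to -0.01.

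The promoter of the neighboring Lrg1, 1405 bp upstream of the nearest Plin5 start, was about as strong, at 73.2 ± 13.4 CPM (SD, n = 3) in the young group against 72.9 ± 8.1 CPM (SD, n = 4) in the aged group. The other 3 regions of the Plin4 and Plin5 windows had log2 fold changes of -0.27 to 0.03. Plin5 was the more accessible promoter per kb, at a mean of 37.4 CPM per kb against 27.2 at Plin4 and 26.8 at Plin2.

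The CIDE genes showed no call. Cideb, the hepatocyte member of the family with a role in lipoprotein lipidation, had a promoter region at chr14:55757018-55759093 (ENSMUSG00000022219.10) with 35.9, 34.7 and 44.6 CPM in young and 37.3, 40.01, 44.8 and 35.0 CPM in aged libraries. This was the smallest difference of the 9 promoters (log2 fold change 0.04, SE 0.13, edgeR adjusted p = 0.89), and its sign turned in 6 of 20 alternative analyses, total counts and abundance offsets among them. Upstream of Cideb, 9123 bp from its nearest start, the region chr14:55767581-55768315 had 12.3, 9.49 and 10.9 CPM in young and 9.40, 6.86, 8.40 and 7.89 CPM in aged libraries. Every aged library was below every young one there, but the difference did not pass the test (log2 fold change -0.40, SE 0.20, edgeR adjusted p = 0.23).

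Cidec, also known as Fsp27 and a marker of fatty liver, had 6 regions (ENSMUSG00000030278.11, chr6:113424634-113435760). The region at its internal start sites, chr6:113434500-113435096, had 12.96, 13.3 and 14.8 CPM in young and 15.1, 19.0, 14.9 and 8.53 CPM in aged libraries. The outermost start site had no region, the nearest being 664 bp away. Its strongest region lay within the gene body, at chr6:113427445-113429281, with 52.1, 52.4 and 54.3 CPM in young and 60.8, 51.8, 67.5 and 55.1 CPM in aged libraries. Both regions overlapped between the ages (log2 fold changes 0.06, SE 0.22, and 0.15, SE 0.12; edgeR adjusted p = 0.89 and 0.45), and the promoter turned negative with total counts and without aged replicate 2, to -0.05 and -0.09. The only Cidec region in which every aged library exceeded every young one was the promoter of the neighboring Rpusd3, with a log2 fold change of 0.26 (SE 0.13, edgeR adjusted p = 0.24).

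Cidea, the CIDE gene of brown fat that appears in strongly steatotic liver, was the least accessible of the 10 genes (ENSMUSG00000024526.9). It had no promoter region, the nearest region being 7184 bp from its start. That region, chr18:67350788-67351913 in an intron, had 2.41, 3.74 and 1.32 CPM in young and 2.72, 6.47, 8.40 and 0.764 CPM in aged libraries. Aged replicates 2 and 3 were the highest and aged replicate 4 the lowest of all 7 libraries, and the log2 fold change of 0.64 (SE 0.55) was not distinguished from 0 (edgeR adjusted p = 0.50). Over the fits without 1 library it ran from 0.20 without aged replicate 3 to 1.133 without young replicate 2, and with limma it was -0.00012.

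Of the lipolysis genes, Pnpla3 (ENSMUSG00000041653.5, chr15:84167837-84187236, plus strand) encodes a droplet-bound relative of adipose triglyceride lipase that is linked to fatty liver disease in people. Its promoter region, chr15:84167632-84169768, had 41.2, 58.6 and 45.4 CPM in young replicates 1 to 3 and 68.1, 95.7, 68.6 and 61.3 CPM in aged replicates 1 to 4. All aged libraries were above all young ones, with a gap of 2.76 CPM between young replicate 2 and aged replicate 4. The log2 fold change was 0.59 (SE 0.16, edgeR adjusted p = 0.048), at the 97.1th percentile of all regions and just inside the threshold.

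This rise at Pnpla3 kept its direction in all 20 alternative analyses but passed the test in 8. Without any 1 of young replicates 1 to 3 the edgeR adjusted p was 0.16, 0.059 and 0.097, and without aged replicates 1, 2 or 3 it was 0.093, 0.079 and 0.10. With offsets on mean abundance the log2 fold change was 0.35 (adjusted p = 0.35). With each pair of aged libraries summed in turn, since by the design text 2 of them share an animal, the test was passed in 2 of 6 sums. The summed promoters of the hepatocyte markers, given above, were also higher in every aged library, and the part that this has in the Pnpla3 value was not tested.

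The promoter of Samm50, which lies 5873 bp beyond the nearest Pnpla3 start site and belongs to a mitochondrial outer membrane protein, gave a neighbor for comparison. Its accessibility was 24.7 ± 2.6 CPM (SD, n = 3) in the young and 25.3 ± 4.0 CPM (SD, n = 4) in the aged group (log2 fold change 0.02, SE 0.15, edgeR adjusted p = 0.95). Relative to Samm50 within the same library, the Pnpla3 promoter stood at 0.64, 1.15 and 1.06 on the log2 scale in young and at 1.47, 1.61, 1.59 and 1.41 in aged liver. The means were 0.95 ± 0.27 (SD, n = 3) and 1.52 ± 0.10 (SD, n = 4), and the ages did not overlap. This ratio reuses the Pnpla3 values already given, and Samm50 was named after its values were seen. It is a description with no test of its own, and offsets on mean abundance can change it. The other 3 Pnpla3 regions did not pass the test, with log2 fold changes of 0.46 upstream, -0.38 in an intron and -0.11 downstream.

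Pnpla2 encodes adipose triglyceride lipase, which takes the first step of triglyceride breakdown, and G0s2 encodes its inhibitor. The Pnpla2 promoter (ENSMUSG00000025509.15, region chr7:141454910-141456553) was the most accessible of the 10 genes at 55.2 CPM per kb, at the 94.5th percentile of all promoter regions. It had 84.7, 89.3 and 85.0 CPM in young and 84.2, 80.6, 106 and 106 CPM in aged libraries. The aged group held both the highest and the lowest values (log2 fold change 0.12, SE 0.12, edgeR adjusted p = 0.58), and the sign turned with abundance offsets, to -0.19. Without aged replicates 2, 3 or 4 it was 0.19, 0.06 and 0.07.

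The G0s2 promoter (ENSMUSG00000009633.3, region chr1:193271563-193274958) overlaps the start of Lamb3 as well, so the genes cannot be told apart there. It had 61.1, 54.4 and 71.5 CPM in young and 72.9, 85.3, 95.2 and 60.3 CPM in aged libraries. Aged replicates 1 to 3 exceeded all young libraries, but aged replicate 4 lay below young replicates 1 and 3, and the log2 fold change of 0.33 (SE 0.15) did not pass the test (edgeR adjusted p = 0.19). The accessibility of the G0s2 promoter region over that of Pnpla2 within a library stood on the log2 scale at -0.48 ± 0.23 (SD, n = 3) for the young and at -0.27 ± 0.38 (SD, n = 4) for the aged group, and the groups overlapped.

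**Figure D2:**
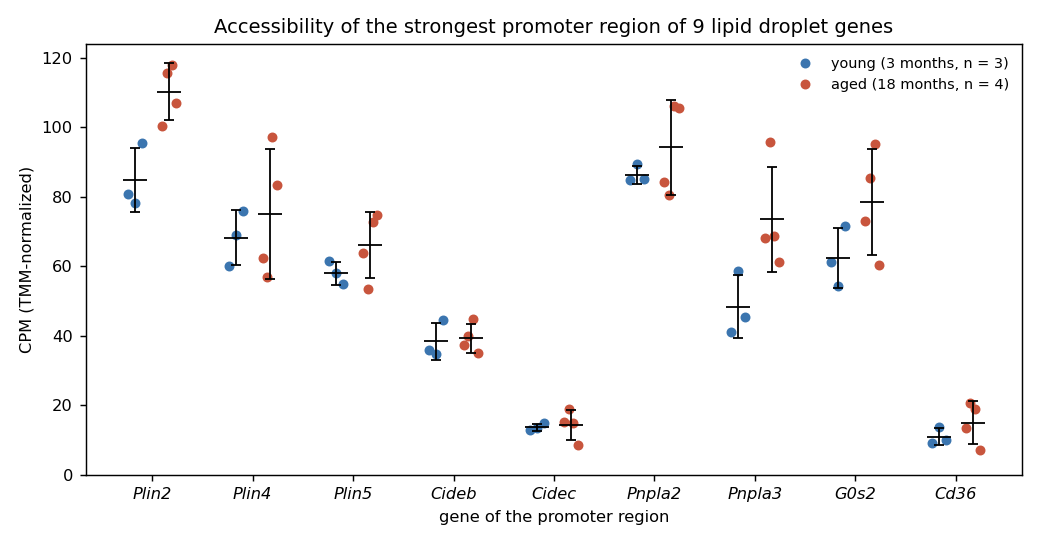
TMM-normalized CPM (y axis, from 0) of the strongest promoter region of each gene (x axis) in 3 young and 4 aged libraries. Points are libraries, and horizontal marks and bars are mean ± SD. Aged libraries lie above all young ones at Plin2 and Pnpla3 only, and Cidea is missing because it had no promoter region.

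Cd36, the fatty acid translocase, spans 107112 bp (ENSMUSG00000002944.15, chr5:17781690-17888801, minus strand) and had 8 regions. By mean signal, 7 of them lay at the 3.76th to 38.3th percentile of all regions and the strongest at the 61.3th. Over its window it had 5.44 CPM per kb of covered sequence in young liver, against 41.2 at Pnpla2. Its strongest region, the internal promoter at chr5:17848475-17850836, had 9.26, 13.8 and 9.87 CPM in young and 13.4, 20.8, 18.9 and 7.0 CPM in aged libraries. The farthest upstream start site had no region within 7013 bp. Aged replicate 4 lay below all young libraries. The log2 fold change of 0.40 (SE 0.29) did not pass the test (edgeR adjusted p = 0.43), nor did the 0.65 without aged replicate 4 (adjusted p = 0.074). Of 20 alternative analyses it passed in 1, with replicate numbers as blocks and without aged replicate 4 (0.68, edgeR adjusted p = 0.037).

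The largest difference at Cd36 was in a region over a coding exon, chr5:17828708-17829346, with 1.48, 3.36 and 3.29 CPM in young and 4.39, 5.88, 5.84 and 1.78 CPM in aged libraries (log2 fold change 0.66, SE 0.40, edgeR adjusted p = 0.33). Single libraries stood low in many Cd36 regions. Aged replicate 4 was the lowest aged library in 5 of the 8 regions, and young replicate 1 the lowest young library in 6. Of the 8 regions, 7 had a log2 fold change above 0, which are not independent since they come from the same 7 libraries.

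Across the 10 genes, all 10 regions at a promoter of these genes (9 genes) had log2 fold changes above 0, from 0.04 to 0.59 with a median of 0.19. The same held for 61.1% of all 15422 promoter regions in the table, at a median of 0.09. The 8 regions at promoters of other genes had a median of 0.01, and the remaining 22 regions one of 0.04, with 13 above 0. Over all 40 regions the median was 0.06, with 28 (70.0%) above 0, where the median of all regions was -0.04 and 46.6% were above 0. This median of the 40 was 0.02 without young replicate 1 and 0.15 without young replicate 3, and turned to -0.06 with total counts, which moved the median of all regions to -0.15. With offsets on mean abundance, which scale strong and weak regions separately, the median of the 40 was 0.01, and the promoters of Plin4, Plin5, Cideb and Pnpla2 were below 0.

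Every aged library exceeded every young one in 3 of the 40 regions (the promoters of Pnpla3, Plin2 and Rpusd3) and lay below in 2 (downstream of Plin2 and upstream of Cideb). Over all regions these shares were 10.2% and 11.6%. An unadjusted p under 0.05 was reached by 4 of the 40, namely the promoters of Pnpla3, Plin2 and G0s2 and the region downstream of Plin2, which is 10% of them against 24.6% of all regions. Among the aged libraries, aged replicate 4 was the lowest in 19 and aged replicate 3 the highest in 18 of the 40 regions. Young replicate 1 was the lowest young library in 18.

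**Figure D3:**
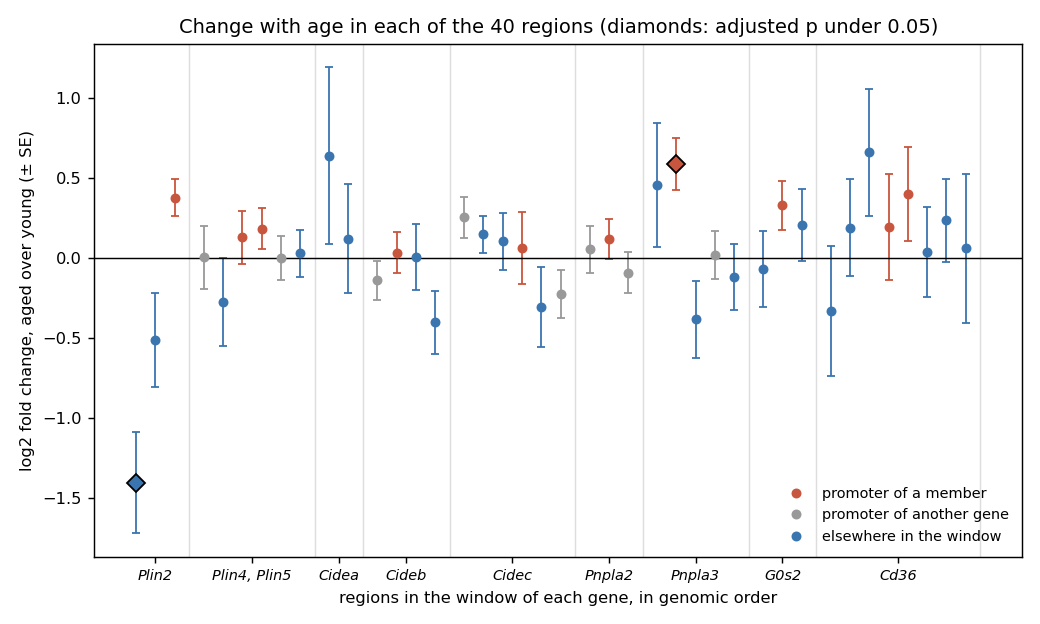
Log2 fold change of aged over young liver with its standard error (y axis) for the 40 regions, grouped by gene and in genomic order (x axis), with Plin4 and Plin5 joined. Colors separate promoters of the named genes, promoters of other genes and all other regions. Diamonds mark the Pnpla3 promoter at 0.59 and the region downstream of Plin2 at -1.40, the only calls.

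Summing the counts of all regions of a gene, its body and 10 kb on either side, gave 1 value per gene. None of the 10 genes passed the test (edgeR, adjusted over 16231 protein-coding genes, of which 9.36% passed), and none had an unadjusted p under 0.05. With replicate numbers as blocks and without aged replicate 4, 3 were called higher (Pnpla3, G0s2 and Cd36), as were 4.66% of all gene windows. With its 3 regions added, Plin2 reached 110 ± 13 CPM (SD, n = 3) at 3 months and 127 ± 15 CPM (SD, n = 4) at 18 months, which is 0.20 on the log2 scale (95% confidence interval -0.05 to 0.45). The promoter carried most of this sum. At Pnpla3 the young group averaged 98.2 ± 14.7 CPM (SD, n = 3) and the aged group 122 ± 22 CPM (SD, n = 4), or 0.30 on the log2 scale (adjusted p = 0.16). G0s2 had 80.2 ± 9.1 CPM (SD, n = 3) and 97.7 ± 17.1 CPM (SD, n = 4), or 0.28 (adjusted p = 0.17). For the others the log2 fold change ran from -0.09 at Cideb to 0.37 at Cidea, whose interval of -0.42 to 1.16 was the widest. The intervals of Plin4 (-0.18 to 0.34), Plin5 (-0.18 to 0.36), Cidec (-0.17 to 0.23), Pnpla2 (-0.19 to 0.27) and Cideb (-0.31 to 0.14) spanned 0 as well.

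**Figure D4:**
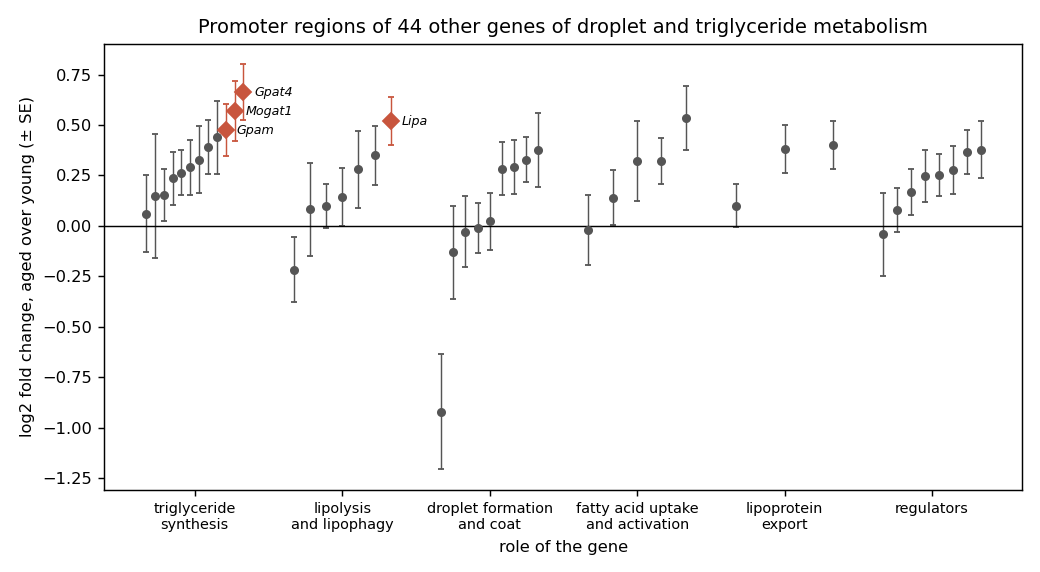
Log2 fold change of aged over young liver with its standard error (y axis) for the promoter regions of 44 other genes, grouped by role (x axis). Diamonds mark the 4 promoters that rose, Gpat4, Mogat1 and Gpam of triglyceride synthesis and Lipa of lipolysis, at 0.47 to 0.66.

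The 10 genes act within a wider set of genes that make, store and break down triglyceride, and 44 of these were examined at their promoters. Of the 44, 4 rose and 0 fell, where 4.48% and 2.06% of all promoter regions did so. Their median log2 fold change was 0.27, and 37 of them were positive, where all promoter regions had a median of 0.09 with 61.1% above 0. Every aged library was above every young one at 13 of the 44 and below at 1, against 20.4% and 8.88% of all promoter regions. Of the cell type markers, the 8 hepatocyte promoters had a median of 0.30 with 8 above 0, while the medians were -0.20 for 3 endothelial, -0.43 for 2 stellate and -0.41 for 2 cholangiocyte promoters, and the macrophage promoter of Clec4f was at -0.66. Summed per library, the stellate promoters had 20.9 to 24.0 CPM in young and 11.9 to 19.0 CPM in aged liver, and the cholangiocyte promoters 41.7 to 49.5 and 36.7 to 54.3 CPM. The endothelial sums, 59.36 to 65.35 CPM in young and 48.45 to 80.69 CPM in aged liver, overlapped. So did Clec4f, at 2.22 to 2.65 and 0.588 to 2.80 CPM. None of these non-hepatocyte promoters had a call. The part of these markers in the wider lists was not tested. Triglyceride synthesis held 3 of the 4 that rose, out of 12 genes. Gpat4, a glycerol-3-phosphate acyltransferase that takes the first step of the pathway, had 46.5, 69.5 and 51.5 CPM in young and 86.6, 90.2, 81.7 and 96.7 CPM in aged libraries, with no overlap (log2 fold change 0.66, SE 0.14, edgeR adjusted p = 0.019). Gpam, the mitochondrial enzyme of the same step, and Mogat1, which acylates monoacylglycerol, rose by 0.47 (SE 0.13, adjusted p = 0.044) and 0.57 (SE 0.15, adjusted p = 0.040) on the log2 scale. Of 20 alternative analyses, the test was passed in 16 at Gpat4, 11 at Mogat1 and 9 at Gpam. The other 9 genes of synthesis, among them Dgat1 and Dgat2 of the last step, did not pass the test, and all 12 had values above 0, as did 61.1% of all promoter regions.

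Of 7 genes of lipolysis and lipophagy only Lipa rose, which encodes lysosomal acid lipase (log2 fold change 0.52, SE 0.12, edgeR adjusted p = 0.026). Lipa passed the test in 12 of 20 alternative analyses. Abhd5, the coactivator of adipose triglyceride lipase, was at 0.10 (SE 0.11, adjusted p = 0.61). Neither the 9 genes of droplet formation and coat, the 5 of fatty acid uptake and activation, the 3 of lipoprotein export nor the 8 regulators had a call. Plin1, the adipocyte perilipin, was below its young range in every aged library but missed the threshold (3.70, 3.44 and 4.60 CPM in young and 2.37, 1.76, 1.87 and 1.91 CPM in aged libraries, log2 fold change -0.92, SE 0.29, adjusted p = 0.070). The transcription factor Pparg, a known driver of Cidec, Cd36 and Plin4 in fatty liver, was at -0.04 (SE 0.21, adjusted p = 0.93). The number of promoters that rose fell to 0 without young replicate 1, aged replicate 1 or aged replicate 3 and with offsets on mean abundance, was 1 without young replicate 2 and 2 without young replicate 3, and reached 8 with DESeq2 and 12 with offsets on GC content. The share of all promoter regions that rose was 0.0973%, 0.201% and 0.357% without young replicate 1, aged replicate 1 and aged replicate 3, 0.214% with offsets on mean abundance, 0.37% and 3.11% without young replicates 2 and 3, and 10% and 13.8% with DESeq2 and GC offsets.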

How the data were processed

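The authors deposited raw read counts, without normalization, in 55680 consensus regions for 7 ATAC-seq libraries of mouse liver. The submitters' processing notes name cutadapt 1.13, Bowtie2 2.4.1, MACS2 2.2.7, featureCounts and GRCm38. Low-quality, duplicate and mitochondrial reads had been discarded before peaks were called per library, and a region needed a peak in at least 2 libraries. Counts carry no molecular identifiers. All 7 columns were mapped to samples by their labels.

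Regions were annotated with GENCODE M21 (141767 transcripts). A promoter region overlapped a start site ± 200 bp. Ages were compared with edgeR 4.0.16 in R 4.3.3 (TMM, no filter, the quasi-likelihood F test and no factor besides age), with Benjamini-Hochberg adjustment over all regions at 0.05. Log2 CPM used a prior count of 2. Gene values were summed counts of all regions in a window. Standard errors came from the fold change and the F statistic, and intervals from the t distribution of the fit. The test was checked on simulated data. Promoter sequences were those of RefSeq for GRCm38.p6. Figures used matplotlib 3.10.9.

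The labels do not say that all libraries come from separate animals, and the design text traces the 4 aged ones to 3 animals. The test took all 4 as separate, so p-values and SDs measure the spread between libraries, not between animals. Libraries of 1 age differed by more than counting noise (chi-square per degree of freedom 2.40 to 6.07), so none was a copy. None of the 40 regions had a near-identical copy elsewhere (minimap2 2.31, 80% of the length at 95% identity).

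The genes and lists were chosen with earlier results of these data known. Named are, for each gene, the promoter region with the highest mean log2 CPM, the region with the lowest p and every region with a call, and, of the wider lists, genes whose promoter region had a call. Other regions, the neighboring promoters and genes of the wider lists given beside them were named after their values were seen. Alternatives were DESeq2 1.42.0, limma 3.58.1 (voom), total counts, loess offsets (span 0.3) on mean abundance and on GC content, filterByExpr, leaving out each library, summing each pair of aged libraries, a replicate block, a threshold of 0.01, windows of 2 kb, regions without other genes' promoters, promoters of ± 1000 bp and a prior count of 0.5.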

Additional observations from a re-analysis of the deposited data

Results flagged for a closer look

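In 1 of the 18 named regions a single aged library stood apart from the rest. At the Mogat1 promoter, aged replicate 2 had 6.47 log2 CPM, against 5.87 to 5.92 in the other 3 aged libraries, a gap of 0.910 of the whole range in that group. Chance alone marks about 1 in 20 groups in this way. The log2 fold change of Mogat1 was 0.57 with this library and 0.41 without it (edgeR adjusted p = 0.040 and 0.054), and its young libraries had 45.8, 47.7 and 40.8 CPM.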

How the results depend on the processing

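The number of the 40 regions that rose (1) became 2 with DESeq2, limma, GC offsets and the replicate block, and 0 with total counts, abundance offsets, a threshold of 0.01 and each of 4 sums of aged libraries (replicates 1 and 2, 1 and 3, 2 and 3, 3 and 4). It was 0 to 1 over the 7 fits without 1 library. The share of all regions that rose moved in the same fits, from 2.44% to 4.96% with DESeq2, 3.95% with limma, 6.28% with GC offsets, 2.91% with the replicate block, 0.975% with total counts, 0.485% with abundance offsets, 0.483% to 1.87% over those 4 sums and 0.0988% to 2.93% without 1 library. The number that fell (1) became 0 with abundance offsets and at 0.01, and was 0 to 1 without 1 library. Of all regions 3.3% fell, 1.0% with abundance offsets and 0.239% to 4.67% without 1 library. The 5 regions with no overlap between ages became 3 with total counts or windows of 2 kb, and 5 to 9 without 1 library. Of all regions 21.8% did not overlap, 22.4% with total counts and 25.8% to 32.9% without 1 library. Equal replicate numbers are not stated to mark shared animals, and the deviations of same-numbered libraries had correlations of -0.12, 0.06 and 0.03, and not every library went best with its own number. The replicate block, which leaves out aged replicate 4, called 3 gene windows higher (Pnpla3, G0s2 and Cd36, named after their values were seen), 2 regions higher (Pnpla3 and the Cd36 promoter, 0.68, adjusted p = 0.037) and 1 lower, and 9 regions did not overlap. In that fit 4.66% of all gene windows and 2.91% of all regions were called higher, 4.55% of all regions lower, and 31.1% of all regions did not overlap.

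The 4 promoters of the wider lists that rose became 8 with DESeq2, 7 with limma, 12 with GC offsets, 1 with total counts, 0 with abundance offsets or at 0.01, and 1, 2 and 7 with sums of aged replicates 1 and 3, 2 and 3, and 2 and 4. They numbered 0 to 5 without 1 library. With total counts 1 promoter fell. Of all promoter regions 4.48% rose, 10% with DESeq2, 7.87% with limma, 13.8% with GC offsets, 1.52% with total counts (where 3.72% fell), 0.214% with abundance offsets, 0.59%, 2.16% and 7.74% with those sums and 0.0973% to 5.5% without 1 library. Among all calls, 42.5% were higher with TMM, 58.8% with DESeq2, 63.1% with GC offsets, 32.6% with abundance offsets and 15.6% with total counts, which moved the median of all regions to -0.15. Without young replicate 1, 0.338% of all regions had a call. The causes of these shifts were not tested.

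The sign turned at 5 promoters and at the Cidea intron. With abundance offsets, Plin4 was -0.154, Plin5 -0.0698, Cideb -0.139 and Pnpla2 -0.194. With total counts, Cideb was -0.0819 and Cidec -0.0475. Summing aged replicates 1 and 3 gave -0.00042 for Cideb, and 1 and 2 gave -0.039 for Cidec. The Cidea intron was -0.00012 with limma. Over the fits without 1 library, Plin4 ran from -0.0087 (without aged replicate 3) to 0.24, Cideb from -0.0351 (without young replicate 2) to 0.159 and Cidec from -0.0915 (without aged replicate 2) to 0.264. Counts of 11 to 18 per aged library limit the region downstream of Plin2.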

Other observations

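Of the wider lists, 9 promoters were higher in every aged than in every young library without passing the test. These were Acsl1, which activates long-chain fatty acids (71.0 to 115 CPM in young and 124 to 161 CPM in aged liver, log2 fold change 0.53, SE 0.16, edgeR adjusted p = 0.060), Tm6sf2 (0.40, adjusted p = 0.059) and Mttp (0.38, adjusted p = 0.075) of lipoprotein export, Nr1h3, the liver X receptor alpha (0.37, adjusted p = 0.062), Plin3, the ubiquitous perilipin (0.33, adjusted p = 0.095), the bile acid and fatty acid CoA ligase Slc27a5 (0.32, adjusted p = 0.11), the regulators Ppara (0.38, adjusted p = 0.12) and Mlxipl (0.25, adjusted p = 0.15), and Dgat2, of the last step of triglyceride synthesis (0.26, adjusted p = 0.17). They were picked after their values were seen, and 20.4% of all promoter regions had every aged library above every young one.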
